A study of Mus musculus with 4 samples.

Results

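The cells described here were adult alveolar type II (AT2) cells of the mouse lung in which at least 1 transcript of a gene typical of alveolar type I (AT1) cells was counted. They were chosen from the postnatal day 60 (P60) AT2 library by their own measured values. A cell had to hold Sftpc, the gene of surfactant protein C, at 0.5 or more of the library median (674 or more UMIs of 10000, where the median was 1349), and 1 or more unique molecular identifiers (UMIs, each standing for 1 captured transcript) of Hopx, Pdpn or Igfbp2. Of 2093 cells in the library 1976 passed the Sftpc condition, and 151 of these held a UMI of the 3 genes, which is 7.64% (95% exact Clopper-Pearson interval 6.51 to 8.90%). The 1825 cells that passed the Sftpc condition with 0 UMIs of all 3 genes served as comparison cells. Since Sftpc, Hopx, Pdpn and Igfbp2 chose the cells, their levels are a description and carry no test.

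All mice were of mixed FVB/C57BL6 background, carried Sftpc-CreER, Rosa26-Zsgreen and Hopx-RFP, and had received 1 or 2 doses of tamoxifen. The AT2 library came from cells with the green label and without the leukocyte protein CD45 (GFP+CD45-) at P60, and the AT1 reference from RFP+Pdpn+GFP-CD45- cells at the same age, so that the Hopx reporter and Pdpn protein themselves chose the AT1 cells. The green label marks cells in which the Sftpc promoter drove Cre, and their descendants. The series holds 9519 cells in 4 libraries (AT1 at P3, P15 and P60, AT2 at P60) with 1 library per group, and the sources used here do not say how many animals gave each.

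AT2 cells make, store and secrete pulmonary surfactant and serve as progenitors of the alveolus, and AT1 cells are the thin cells across which gas exchange takes place. When AT2 cells turn into AT1 cells after injury they pass through a transitional state marked by Krt8 and other keratins, Sfn and Cdkn1a, lose surfactant genes and gain AT1 genes. Hopx encodes a small homeodomain protein that does not bind DNA itself, Pdpn encodes podoplanin, a membrane glycoprotein of the AT1 surface, and Igfbp2 encodes a secreted protein that binds insulin-like growth factors.

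The 2093 AT2 cells held 10379705 UMIs, with a median of 4864 per cell, and the P60 AT1 library held 7276458 UMIs in 1337 cells. Because both groups of AT2 cells come from 1 library, cells are not replicates, no p-value is given, and every interval covers counting error only. Levels are CPM, the usual scaling of a gene's UMIs to the total of all genes, summed over the cells of a group, and ratios are the 151 cells over the 1825 comparison cells with exact conditional Poisson intervals at 95%. The AT1 and AT2 lungs were dissociated with different enzymes, so differences between those libraries cannot be told apart from the dissociation. The P60 AT1 and AT2 libraries shared 3 cell barcodes, and AT2 shared 9 to 11 with the younger AT1 libraries. No doublet caller was run and no cell was removed.

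Hopx accounted for most of the chosen cells. It was counted in 132 of the 151 cells, with 155 UMIs in all, and 117 of these 132 cells held a single Hopx UMI, 10 held 2 and 5 held between 3 and 5. Pdpn was counted in 16 cells and Igfbp2 in 16 cells, always as 1 UMI. Hopx alone was found in 120 cells, Pdpn alone in 12 and Igfbp2 alone in 7. Hopx was found with Igfbp2 in 8 cells, with Pdpn in 3 and with both in 1. In 128 cells (84.8%) the choice therefore rested on 1 UMI, and 12 cells (7.95%) held 2 or 3 of the genes.

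**Figure D1:**
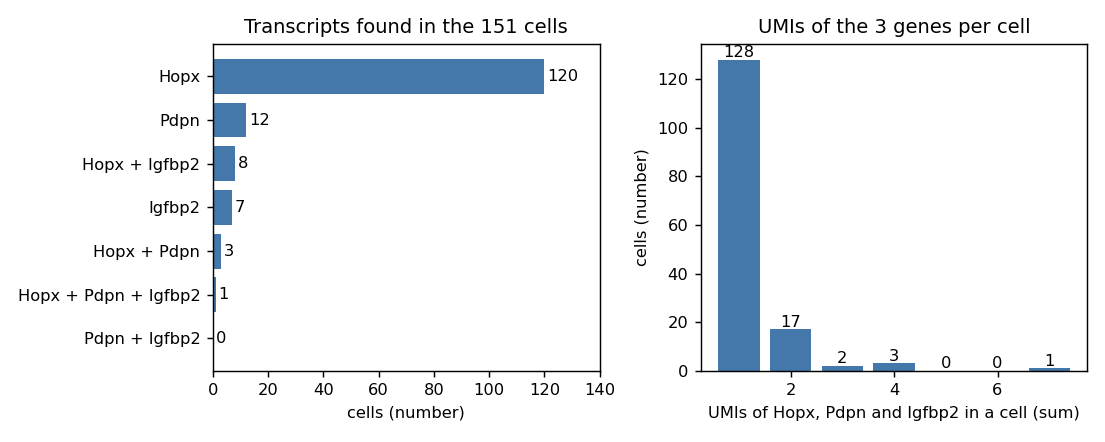
Left, number of chosen AT2 cells (x axis, cells) by the combination of Hopx, Pdpn and Igfbp2 transcripts found in them; right, number of cells (y axis) by the summed UMIs of the 3 genes (x axis). Hopx alone accounts for 120 of 151 cells, and 128 cells hold 1 UMI.

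Single UMIs of this kind were far below the content of an AT1 cell. P60 AT1 cells held a median of 25 Hopx, 6 Pdpn and 7 Igfbp2 UMIs, and 97.5%, 90.8% and 90.9% of them held at least 1. Hopx stood at 5632 CPM in the P60 AT1 library and at 15.5 CPM over all 1976 AT2 cells that passed the Sftpc condition, or 0.276% of the AT1 level. Pdpn stood at 0.129% (1.60 against 1239 CPM) and Igfbp2 at 0.0848% (1.60 against 1891 CPM).

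Hopx was found more often in cells that also held Pdpn or Igfbp2 than in the rest. With each cell thinned at random to 2000 UMIs, which left out 44 shallower cells, Hopx was found in 6 of 15 cells that held Pdpn or Igfbp2 (40.0%, 95% interval 16.3 to 67.7%). Among the other 1917 cells it was found in 50 (2.61%, 1.94 to 3.42%). Without thinning the counts were 12 of 31 (38.7%, 21.9 to 57.8%) and 120 of 1945 (6.17%, 5.14 to 7.33%). Igfbp2 was found in 9 of 132 cells with Hopx (6.82%) and in 7 of 1844 without it (0.380%). Pdpn was found in 4 of the 132 cells with Hopx (3.03%) and in 12 of the 1844 (0.651%), so the Pdpn overlap rests on 4 cells.

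Depth differed little between the groups. The chosen cells had a median of 5132 UMIs (95% interval of the median 4886 to 5432) and 1601 detected genes, and the comparison cells had 4901 (4828 to 5001) and 1551. None of the 44 cells under 2000 UMIs was chosen, a count of 0 that allows a share of up to 6.82% by 3 counts of the total and 8.04% by the exact interval. The share was 4.26% from 2000 to 3000 UMIs and lay between 6.54% and 9.39% from 3000 to 8000. At 8000 UMIs or more it was 12.1% (11 of 91 cells, 6.19 to 20.6%). Cells in the top 5% of UMIs made up 7.28% of the chosen and 4.82% of the comparison cells. The part of doublets in these shares was not tested.

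RNA free in the cell suspension can put UMIs into cells that do not express a gene. In 28 cells of the same library that held 3 or more endothelial, immune or fibroblast markers (median 2580 UMIs), Hopx was found in 1 cell (3.57%, 95% interval 0.0904 to 18.3%; 11.5 CPM). In the 1976 AT2 cells (median 4919 UMIs) it was found in 6.68% (15.5 CPM). The interval of the 28 cells spans the AT2 share, so the Hopx share could not be told from this background at this depth. Pdpn was found in 2 of the 28 cells (7.14%) against 0.810% of AT2 cells. Stromal and lymphatic cells can express Pdpn themselves, so the 28 cells give no background value for it. Igfbp2 was found in 0 of the 28, which allows a share of up to 10.7% by 3 counts of the total and 12.3% by the exact interval. Ager, by contrast, was found in 17.9% of the 28 cells at 103 CPM and in 98.1% of AT2 cells at 1573 CPM. Sftpc was found in all 28 cells at 8632 CPM, against 138222 CPM in AT2 cells. Detection of an abundant AT2 transcript in a cell thus does not by itself show that the cell makes it.

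The chosen cells held the full set of AT2 markers. Each of Sftpb, Sftpa1, Sftpd, Lyz2, Lamp3, Slc34a2 and Cxcl15 was detected in all 151 cells, and Abca3, the lipid transporter of the surfactant storage organelle, in 90.7% against 95.2% of comparison cells. Among the AT2 identity genes other than Sftpc, 33 of 33 were measured (30 or more UMIs over both groups), and 0 were 1.5-fold or more apart in either direction. Over all 9549 genes measured in this way 8.12% were that much higher and 10.5% lower. All 33 genes of the list reached 50 CPM in the higher group. Among the 2210 genes with 50 CPM and 30 UMIs there, only 0.905% were that much higher and 0.317% lower. The 0 of 33 is thus near the share of genes at that level. The median log2 ratio of the list was -0.05, against 0.02 over all measured genes, and 23 of 33 genes lay below a ratio of 1. Sftpa1, a surfactant collectin, stood at 36368 against 38707 CPM (0.94, 0.93 to 0.95). Sftpb, needed for the surfactant film, stood at 16291 against 16995 CPM (0.96, 0.94 to 0.98). The phosphate transporter Slc34a2 stood at 4515 against 4662 CPM (0.97, 0.94 to 1.00), and Abca3 at 626 against 711 CPM (0.88, 0.80 to 0.96). Sftpc itself, part of the choice, had a per-cell median of 1334 per 10000 UMIs in the chosen and 1375 in the comparison cells. In the 12 cells with 2 or 3 of the genes of the choice Sftpb stood at 13129 CPM and Slc34a2 at 4640 CPM.

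AT1 genes that were not used in the choice were higher in the chosen cells, at a small part of their AT1 level. Of 40 AT1 identity genes 32 were measured: 13 were 1.5-fold or more higher, 0 were that much lower, and 30 lay above a ratio of 1. Over all measured genes 8.12% were that much higher and 10.5% lower. The median log2 ratio of the list was 0.46, against 0.02 over all measured genes. It was 0.28 in the 139 cells with 1 of the genes of the choice and 0.31 without the single cell that held all 3. All chosen cells together held the 32 measured genes at 6278 CPM, the comparison cells at 5137 CPM and P60 AT1 cells at 77395 CPM. The 8 unmeasured genes held 0 to 7 UMIs in the chosen cells. Rtkn2 and Cav1, both AT1 markers, had 3 and 7 UMIs there and 7 and 20 in the comparison cells, and Spock2, Sema3a, Sema3e, Wnt7a and Msln were listed at 0. The AT2 library listed 1068 of its 12509 genes at 0 in every cell, against 9, 0 and 0 genes in the P3, P15 and P60 AT1 libraries. A gene listed at 0 is thus not shown to be absent.

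Ager encodes a receptor of glycated proteins and was the most abundant AT1 gene of the list. It was found in all 151 cells and in 98.0% of comparison cells. The chosen cells held a median of 8 Ager UMIs (range 1 to 39) and the comparison cells a median of 7 (0 to 42), against a median of 106 in P60 AT1 cells. Summed levels were 1806 and 1552 CPM, a ratio of 1.16 (1.10 to 1.23), and P60 AT1 cells stood at 21138 CPM. The per-cell quartiles, 1067 to 2227 CPM in the chosen and 866 to 2094 in the comparison cells, overlapped over most of their length. In the 12 cells with 2 or 3 of the genes of the choice Ager stood at 2982 CPM (quartiles 1944 to 2950). In the 139 cells with 1 of these genes Ager stood at 1700 CPM (ratio 1.10, 1.03 to 1.16). Aqp5, the water channel of the AT1 membrane, stood at 460 against 423 CPM (1.09, 0.97 to 1.21), an interval that includes 1.

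Akap5, an anchoring protein for protein kinase A, had the largest ratio of the list. It was found in 21 of the 151 cells (13.9%, 8.82 to 20.5%) and in 40 of the 1825 (2.19%, 1.57 to 2.97%). Its levels were 35.1 and 4.58 CPM, a ratio of 7.67 (4.58 to 12.7), while P60 AT1 cells stood at 1108 CPM. In the cells with 1 of the genes of the choice its ratio was 5.38. The myelin and epithelial membrane protein gene Pmp22 stood at 17.6 against 5.56 CPM (3.16, 1.62 to 5.80) on 14 UMIs. Clic5, an intracellular chloride channel protein, stood at 47.7 against 29.0 CPM (1.64, 1.14 to 2.32), with a ratio of 1.37 in the cells with 1 of those genes. Col4a4, a basement membrane collagen chain, stood at 41.4 against 26.7 CPM (1.55, 1.04 to 2.24), with a ratio of 1.13 in the cells with 1 of those genes.

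**Figure D2:**
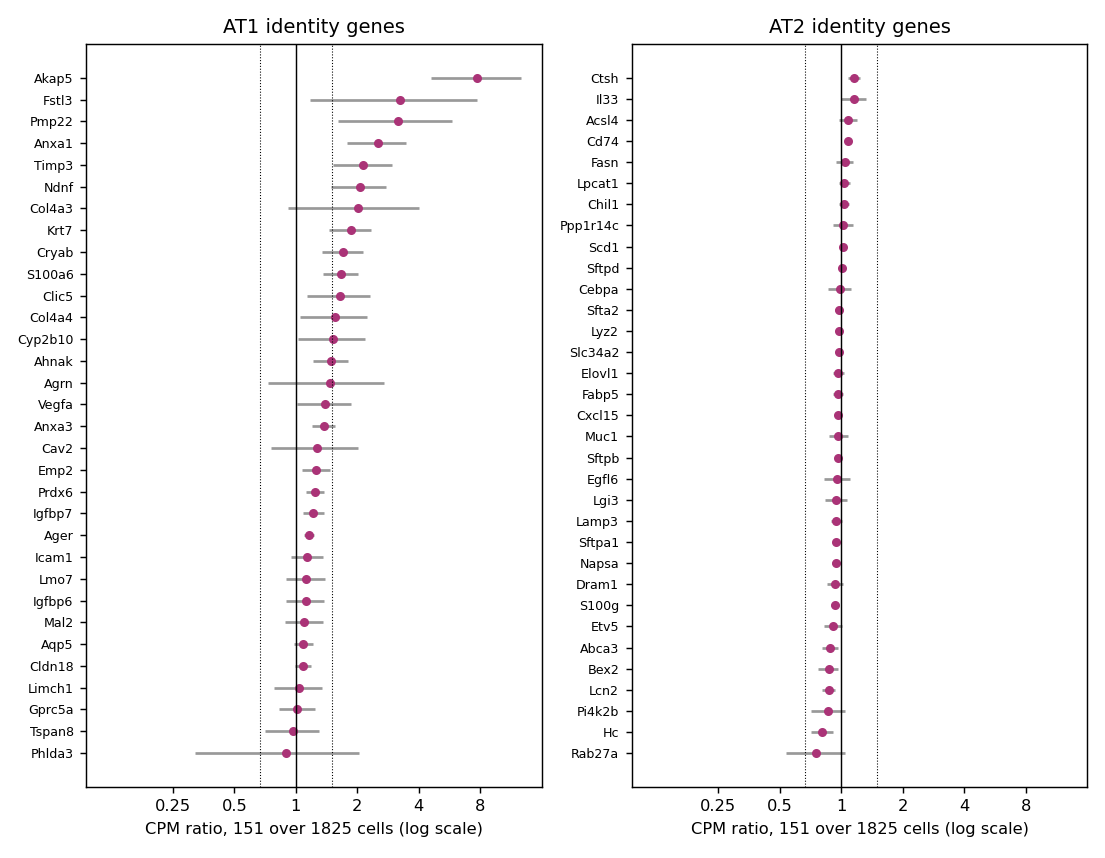
CPM ratio of the 151 chosen over the 1825 comparison AT2 cells (x axis, log scale) for each measured AT1 identity gene (left) and AT2 identity gene (right); points are ratios, bars 95% intervals for counting error, the solid line marks 1 and the dotted lines 1.5-fold. AT1 genes spread from just below 1 up to 7.67 for Akap5, and all 33 AT2 genes lie within the dotted lines.

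Across the whole transcriptome 2210 genes reached 50 CPM and 30 UMIs in the higher group. Of these 20 (0.905%) were 1.5-fold or more higher in the chosen cells and 7 (0.317%) were lower. At 2-fold 4 genes were higher (0.181%) and 0 were lower. AT1 identity genes made up 6 of the 20 higher genes and 0 of the 7 lower genes. Of the 20 higher genes 16 were under 50 CPM in the comparison cells and entered through the small group in which they were higher, so neither the 20 against 7 nor the 6 of 20 is support for a direction. With 50 CPM required over both groups together, 2021 genes were compared, and 4 were higher (0.198%) and 7 lower (0.346%). The 4 were Vps8 and the AT1 identity genes Krt7, Cryab and S100a6, and the 7 were the lower genes named below. The comparison cells held 9177600 UMIs and the chosen cells 797394, so this minimum mostly followed the comparison level. Genes lower in the chosen cells could still enter through it, so the 4 against 7 is no support for a direction either.

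The 6 AT1 identity genes were Anxa1, Timp3, Ndnf, Krt7, Cryab and S100a6. Anxa1, an annexin that binds membranes with calcium (chromosome 19, 20373428 to 20390944, minus strand, mm10), stood at 57.7 against 23.0 CPM (2.51, 1.78 to 3.47). Timp3, an inhibitor of matrix metalloproteinases (chromosome 10, 86300372 to 86349506, plus strand), stood at 56.4 against 26.5 CPM (2.13, 1.51 to 2.94). Ndnf, a secreted glycoprotein gene, stood at 64.0 against 31.2 CPM (2.05, 1.49 to 2.77). The keratin gene Krt7 stood at 103 against 55.6 CPM (1.85, 1.45 to 2.34) and the small heat shock protein gene Cryab at 112 against 65.7 CPM (1.70, 1.34 to 2.13). S100a6, a calcium-binding protein gene, stood at 153 against 92.1 CPM (1.66, 1.36 to 2.01).

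The UMIs of these genes sat in few cells. S100a6 was found in 19.9% of the chosen and 13.4% of the comparison cells. The 8 chosen cells with 5 or more S100a6 UMIs (5.30%) held 77.0% of the group's S100a6 UMIs. In the comparison group 43 such cells (2.36%) held 62.7%. For Ndnf 9 chosen cells with 2 or more UMIs held 68.6% of its UMIs, and for Anxa1 4 such cells held 52.2%. In the comparison group such cells held 30.1% for Ndnf (31 cells) and 28.0% for Anxa1 (21 cells). Without the cell that held all 3 genes of the choice the ratios of these 6 genes lay between 1.60 and 2.41.

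Among the higher genes outside the AT1 list, Vps8, part of an endosomal tethering complex, stood at 183 against 97.4 CPM (1.88, 1.57 to 2.24). Cells with 5 or more Vps8 UMIs held 58.2% of its UMIs in the chosen group (7 cells) and 57.4% in the comparison group (51 cells). Sqle, an enzyme of cholesterol synthesis, stood at 75.2 against 47.5 CPM (1.58, 1.19 to 2.08), and Psap, the precursor of lysosomal saposins, at 57.7 against 33.0 CPM (1.75, 1.25 to 2.39). Within the AT1 list, smaller differences were found for Ahnak, a large scaffold protein gene, at 147 against 99.2 CPM (1.48, 1.21 to 1.80), and for the annexin Anxa3, at 321 against 235 CPM (1.37, 1.20 to 1.56).

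Lyz1 was the most abundant of the 7 lower genes. It encodes a lysozyme and stood at 3510 against 6167 CPM, which was 1.76-fold lower (1.69 to 1.83). Its median was 4 UMIs in the chosen and 5 in the comparison cells, while 100 or more UMIs were found in 3.97% (1.47 to 8.45%) and 10.1% (8.79 to 11.6%) of them. Lyz1 and Lyz2 are near-identical copies whose reads the counting may divide, so the Lyz1 value is uncertain. Lyz2 stood at 27194 against 27914 CPM. The other lower genes were Dmkn, a secreted epithelial protein gene, at 35.1 against 68.1 CPM (1.94-fold lower, 1.33 to 2.94), the laminin chain Lamb3, the tubulin Tuba1c, the splicing factor Rbm25, Zfp467 and Maged1, which were 1.51- to 1.63-fold lower.

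A wider set of AT1 genes came from the P60 libraries themselves. It held the 199 genes with 100 CPM or more in the AT1 library and at least 10-fold above the whole AT2 library, other than the 3 of the choice. Of the 143 measured, 36 were 1.5-fold or more higher in the chosen cells and 7 lower, where all measured genes gave 8.12% and 10.5%, and the median log2 ratio was 0.29. A gene's difference between the 2 groups of AT2 cells, as a part of its AT1 level, was 0.670% at the median of the 199 genes and 0.811% without the 19 listed at 0 in both groups. The difference was above 0 for 138 and below 0 for 42. It amounted to 1.20% for Ager, 2.39% for Krt7, 2.42% for Cryab, 2.76% for Akap5, 4.28% for Anxa1 and 4.83% for Ndnf (no interval was computed for these shares).

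The level of these 199 genes in all 1976 AT2 cells also differed from gene to gene. At the median it was 3.18% of the AT1 level (quartiles 0.768 and 6.67%). In these AT2 cells 19 of the genes were listed at 0, which does not show that they were absent, and over the other 180 the median was 4.00%. Ager stood at 7.44%, whereas Pmp22 stood at 0.302% and Hopx at 0.276%. Of the 199 genes 29 lay below Hopx, namely the 19 listed at 0 and 10 with counts, Rtkn2 at 0.0841% and Cav1 at 0.220% among them. Aqp5 stood at 14.7% and Cldn18, a claudin of alveolar tight junctions, at 23.5%. Both lay outside the set, being less than 10-fold higher in the AT1 than in the AT2 library.

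**Figure D3:**
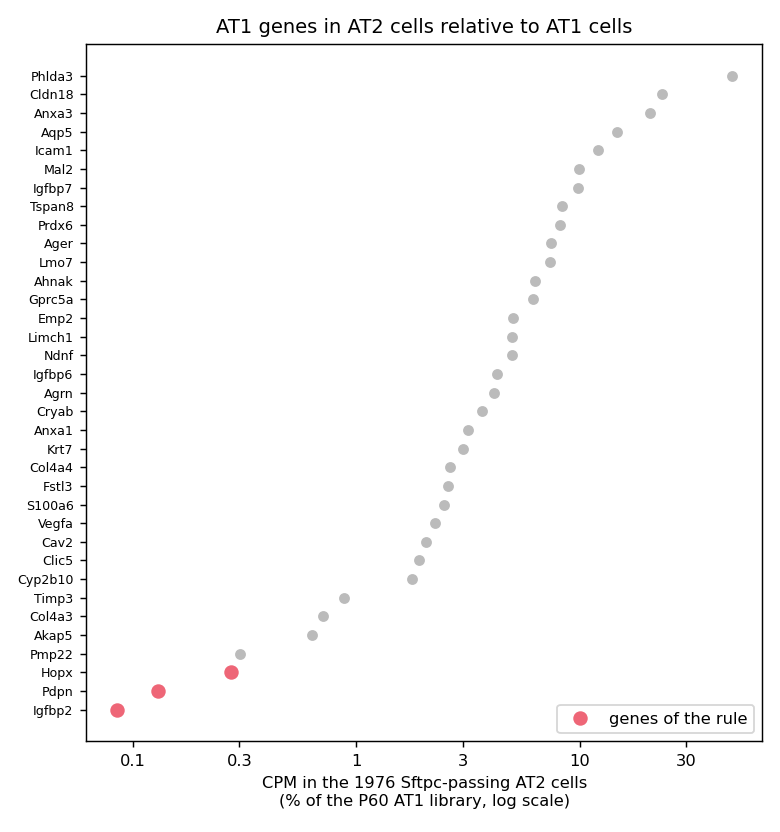
Level of each measured AT1 identity gene and of the 3 genes of the rule in the 1976 AT2 cells that passed the Sftpc condition, as a percent of its level in the P60 AT1 library (x axis, log scale). Hopx, Pdpn and Igfbp2 have the lowest values shown, at 0.276%, 0.129% and 0.0848%, and Ager lies at 7.44%. The 3 genes of the rule are shown whatever their UMI count. AT1 identity genes with too few UMIs to be measured are left out. Of these, Rtkn2 stood at 0.0841%, Cav1 at 0.220% and Scnn1g at 0.409%, and the others were listed at 0. The lowest place of the 3 genes therefore depends on which genes are shown.

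Cell by cell, the 199 AT1-enriched genes took a median of 0.691% of the UMIs in the chosen cells (quartiles 0.557 and 0.892%) and 0.595% in the comparison cells (0.480 and 0.737%). In P60 AT1 cells they took 13.9%. The 99th percentile of the comparison cells, 1.24%, was passed by 8 chosen cells (5.30%) and by 19 comparison cells, a number the percentile itself sets. The 12 cells with 2 or 3 of the genes of the choice had a median of 0.965% and 3 of them passed 1.24%. The 139 others had a median of 0.674%. A single chosen cell reached the 5th percentile of the AT1 cells, 3.86%.

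That cell, at 5.98%, was the only one of the chosen cells with all 3 genes of the choice. It had 3276 UMIs, among them 5 of Hopx, 1 of Pdpn, 1 of Igfbp2, 39 of Ager, 13 of Igfbp6 and 9 of Vegfa, beside 228 of Sftpc, 32 of Sftpb and 13 of Slc34a2. It was also the chosen cell nearest to the Sftpc threshold, at 696 UMIs per 10000. The next cells inside, at 699 and 716, held 1 Igfbp2 and 1 Hopx UMI. Just outside, a cell at 673 held 1 Hopx UMI, and a cell at 650 held 22 of Hopx, 20 of Pdpn, 9 of Igfbp2 and 98 of Ager in 9962 UMIs. Of the 117 cells below the threshold 13 (11.1%) held a UMI of the 3 genes, and 4 of them held 5 to 45 of Hopx. Cells that held Sftpc together with several AT1 transcripts thus lay on both sides of the threshold.

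**Figure D4:**
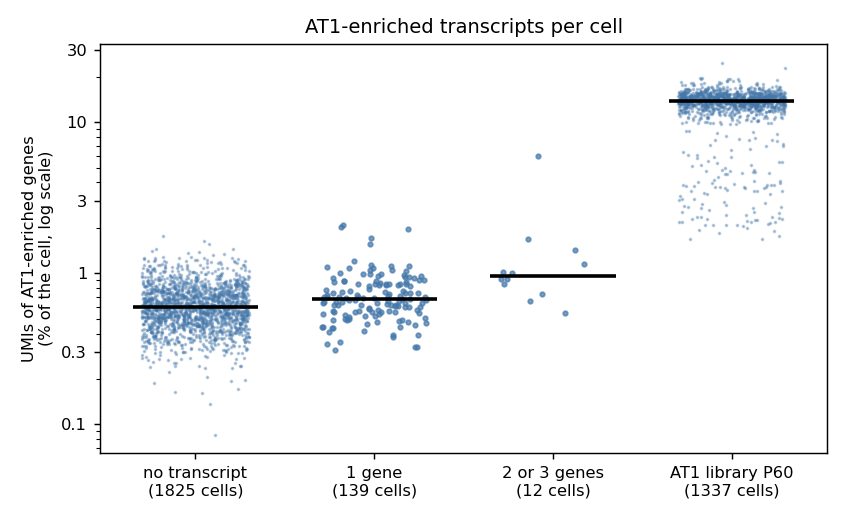
Share of each cell's UMIs from the AT1-enriched genes (y axis, percent, log scale) in comparison AT2 cells, chosen cells with 1 or with 2 or 3 of the genes of the choice, and P60 AT1 cells. Each point is a cell and each bar a median. The medians are 0.595%, 0.674%, 0.965% and 13.9%, and 1 chosen cell lies at 5.98%.

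Among genes of the AT2 to AT1 transitional state, 6 were higher in the chosen cells, while the keratins Krt8 and Krt18 lay close to the comparison cells. These 6 of 24 measured genes were 1.5-fold or more higher, where all measured genes gave 8.12%, and 0 were lower. The median log2 ratio of the list was 0.22. The 6 were Anxa1 and Krt7, which also belong to the AT1 list, Sfn (42.6 against 27.0 CPM), Gdf15 (21.3 against 9.37 CPM), the integrin Itgb6 (12.5 against 4.14 CPM) and Trp53 (22.6 against 13.7 CPM, 1.64, 0.94 to 2.71). Gdf15 had 11 of its 17 UMIs in 1 cell and was found in 3.31% of the chosen against 3.78% of the comparison cells. Sfn was found in 8.61% against 11.0%. Cells with 2 or more Sfn UMIs held 70.6% of its UMIs in the chosen group (3 cells) and 31.9% in the comparison group (32 cells). Krt8, the keratin that names the state, stood at 127 against 121 CPM (1.04, 0.84 to 1.28), Krt18 at 206 against 178 CPM (1.16, 0.98 to 1.36) and the stress protein gene Nupr1 at 436 against 510 CPM (0.86, 0.77 to 0.96). A cell-wise sum over 21 genes of the list, without those shared with the AT1 lists, had nearly the same median in both groups, 0.194% and 0.193% of UMIs.

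A few single cells stood apart from that median. The 99th percentile of the comparison cells for this sum, 0.497%, was passed by 5 chosen cells (3.31%, 1.08 to 7.56%). The percentile itself sets the share of comparison cells above it, here 19 cells (1.04%). All 5 chosen cells held 1 Hopx UMI and no Pdpn or Igfbp2. The highest of them, at 1.16%, held 21 S100a6, 22 Anxa3, 14 Cdkn1a, 11 Gdf15, 11 Sfn and 10 Krt8 UMIs in 7848, with 1 UMI of Slc34a2, 0 of Abca3 and 799 of Sftpc, and 1 of Ager. Of the 12 cells with 2 or 3 of the genes of the choice 0 passed the 99th percentile. Both 99th percentiles, for AT1-enriched and for transitional genes, were passed by 3 chosen and 4 comparison cells. Without the cells above the transitional percentile in both groups the median log2 ratio of the list was -0.12.

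**Figure D5:**
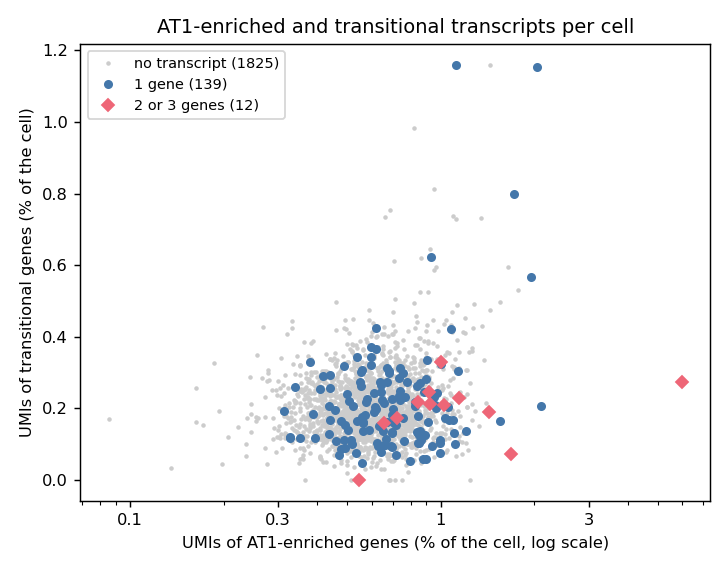
Share of each AT2 cell's UMIs from the AT1-enriched genes (x axis, percent, log scale) against the share from the transitional genes (y axis, percent). Grey points are comparison cells, blue points chosen cells with 1 of the genes of the choice and red diamonds those with 2 or 3. The chosen cells high on the y axis hold 1 of these genes, and the 12 cells with 2 or 3 lie at or below 0.330%.

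Pathways linked to the 3 genes were read beside all measured genes, of which 8.12% were 1.5-fold or more higher and 10.5% lower. Of 8 genes around Hopx, the histone deacetylases and serum response factor partners, 0 were 1.5-fold or more higher and 1 lower, Smad4, a signal transducer of the TGF-beta family (17.6 against 31.2 CPM). Hdac2 stood at 47.7 against 47.8 CPM. Of 14 genes of the podoplanin partners and cortical cytoskeleton 0 were that far apart, and Actb, the main actin, stood at 2709 against 2491 CPM (1.09, 1.04 to 1.14). Of these 14 genes 10 reached 50 CPM in the higher group, a level at which 0.905% of genes were higher and 0.317% lower. Of 10 measured genes of the insulin-like growth factor axis 2 were higher and 1 lower. The receptor gene Igf1r was among the higher, with a ratio of 2.30 on 42 UMIs over both groups. Without the cell that held all 3 genes of the choice, 1 gene of this axis was higher. The binding protein Igfbp7 stood at 388 against 318 CPM (1.22, 1.08 to 1.37) and Igfbp6 at 122 against 109 CPM (1.11, 0.90 to 1.37).

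Among 12 measured targets and partners of YAP and TAZ, the mediators of mechanical signals in AT1 cells, 4 were 1.5-fold or more higher and 0 lower, where all measured genes gave 8.12% and 10.5%. The transcription factor gene Tead1 stood at 35.1 against 19.1 CPM (1.84, 1.19 to 2.76). Its ratio was 1.52 without the cell that held all 3 genes of the choice and 1.36 in the cells with 1 of them. Ptpn14 stood at 12.5 against 2.40 CPM on 10 UMIs. Wwc1, the most abundant of the list, stood at 152 against 135 CPM (1.13, 0.93 to 1.36). Of 15 measured genes of Wnt and FGF signalling 1 was higher and 1 lower, and Etv5, an FGF-responsive factor of AT2 cells, stood at 509 against 561 CPM (0.91, 0.82 to 1.00). Lung epithelial transcription factors held 0 of 16 beyond 1.5-fold, with Nkx2-1 at 319 against 325 CPM and Cebpa at 325 against 332 CPM. Of these 16 factors 10 reached 50 CPM in the higher group, where 0.905% of genes were higher and 0.317% lower.

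Markers of other cell types had similar or low levels in both groups, and their part in the differences above was not tested. Of the immune, endothelial and fibroblast lists 0 chosen cells held 3 or more markers, and in the comparison cells 1, 2 and 0 did. Summed immune markers stood at 21.3 against 29.4 CPM, endothelial at 117 against 97.1 CPM and fibroblast at 2.51 against 2.51 CPM. The endothelial genes Cdh5, Cldn5, Kdr, Emcn and Tie1, and the collagens Col1a1, Col1a2 and Col3a1, were at 0 in the chosen cells. Summed club cell markers stood higher than these, at 1844 against 2067 CPM, and 3 or more were found in 5.96% of the chosen and 7.62% of the comparison cells. Ciliated cell markers stood at 157 against 140 CPM, and 3 or more were found in 1.99% (3 cells) and 0.767%. Tppp3 and Sec14l3, which can mark ciliated cells, also belong to the AT1-enriched genes. They stood at 76.8 and 41.0 CPM in the AT2 cells that passed the Sftpc condition. In P60 AT1 cells they stood at 1161 and 1469 CPM. The ciliated values are therefore not shown to come from ciliated cells. Mitochondrial genes took 5.83% against 6.21% of UMIs, ribosomal protein genes 14.9% against 14.4% and the nuclear RNA Malat1 4.06% against 4.02%.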

How the data were processed

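The 4 deposited files, 1 for each library, hold 1 natural log value for each gene in each cell. From the values themselves, the authors had brought every cell's UMIs to a total of 10000 and deposited the natural log of 1 plus that scaled count. Cell Ranger 1.3.1, Seurat 2.0.0 and the builds mm10 and hg19 are named per the submitters' processing notes. The role of hg19 and any cell filter are not given in the sources used here. Unlogging and dividing by each cell's smallest step gave whole UMIs for 100% of values within a tolerance of 0.05, and all results rest on these UMIs.

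UMIs were summed over the chosen and the comparison cells, with NumPy 2.4.6 and SciPy 1.17.1. A gene was called at 1.5-fold or more with 50 CPM and 30 UMIs in the higher group. List genes needed 30 UMIs over both groups. A group with 0 UMIs was set to a floor of 3 counts summed over the group. A list's count and median stand without a test. The AT1-enriched genes were taken from the 2 P60 libraries, so the comparison cells also entered their choice. The calculation was checked on simulated counts with known ratios.

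The cells and the gene lists were chosen with earlier results of these data known. Named genes are those of the choice, the 10 most abundant AT1 and AT2 identity genes, the 10 largest ratios in each direction with 50 CPM and 100 UMIs in the higher group, and up to 4 of the most abundant genes per list. From these the text names a part. Other genes were named after their values were seen, among them Akap5, Pmp22, Anxa1, Timp3, Ndnf, Krt7, Cryab, Clic5, Col4a4, Sqle, Psap and the single cells described. Coordinates come from the GENCODE annotation of mm10.

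Alternatives covered the Sftpc threshold, the genes and UMIs required, thinning to 2000 UMIs, weighting by depth, scaling, the fold and count minimums, the group in which a minimum applies, and leaving out deep cells or cells with markers of another type.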

Additional observations from a re-analysis of the deposited data

How the results depend on the processing

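Of 149 recomputed values 92 kept their direction and size, 54 moved and 3 changed sign. The share of cells chosen was 0.607% with 2 of the 3 genes required, 1.16% with 2 UMIs, 0.810% with Pdpn or with Igfbp2 alone and 3.36% after thinning to 2000 UMIs. The number of genes called higher was 64 with no Sftpc threshold, 12 with 2 genes required, 33 with Hopx alone, 10 with Pdpn or with Igfbp2 alone, 7 after thinning, 34 from means of per-cell CPM, 37 without ribosomal, mitochondrial and haemoglobin genes in the total, 4 at 2-fold and 190 at 20 CPM and 10 UMIs. The number called lower was, with Sftpc at the median or above, 41. It was 333 with 2 genes required, 204 with 2 UMIs, 11 with Hopx, 334 with Pdpn, 308 with Igfbp2, 210 after thinning, 14 from per-cell CPM, 13 without those genes in the total, 15 without the top 5% of cells by UMIs, 0 at 2-fold and 123 at 20 CPM and 10 UMIs. Groups of 12 to 65 cells hold few UMIs, so counts of lower genes there rest on few UMIs.

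The Ager ratio was 1.37 with no Sftpc threshold, 1.92 with 2 genes required, 1.49 with 2 UMIs, 1.75 with Pdpn, 1.53 with Igfbp2, 1.26 after thinning and 1.10 with 1 gene only. The AT1 identity median was 0.94 with no Sftpc threshold, 0.94 with 2 genes required and 1.01 with Igfbp2 alone. Its lowest value was 0.22, with Sftpc at the median or above, which lay inside the main interval (0.19 to 0.73). With 2 genes required the median over all measured genes was itself 0.80, since the floor lifts genes at 0. It was 0.32 with 2 UMIs, 0.57 with Pdpn, 0.59 with Igfbp2 alone and 0.05 with no Sftpc threshold. The AT1 identity medians above and the medians below stand against these. With Pdpn alone the AT1 identity median was 0.61, close to the 0.57 over all measured genes, and with 2 UMIs it was 0.65. The AT1-enriched median was 0.77 with no Sftpc threshold, 1.26 with 2 genes required, 0.83 with 2 UMIs, 1.05 with Pdpn, 0.95 with Igfbp2 and 0.53 after thinning. The AT2 identity median was -0.0061 with Sftpc at the median or above, -0.0068 with 2 genes required, -0.018 with Pdpn and -0.10 when scaled by trimmed mean of log ratios, and reversed to 0.00049 with 2 UMIs. The transitional median was 0.0039 with 2 UMIs and reversed to -0.081 with Sftpc at the median or above.

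Other alternatives were chosen after seeing the data. With 50 CPM required over both groups together, 4 genes were higher. With 1 gene only, 12 genes were lower and the AT1-enriched median was 0.19. Without cells above the 99th percentile for AT1-enriched genes, 12 genes were higher and that median was 0.15. Without those above it for transitional genes, 13 were higher and the transitional median reversed to -0.12. Beyond smaller groups, the causes were not tested. No paired analysis was possible because each group has 1 library and the result comes from no test.

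With a median of 4919 UMIs per cell a gene under 50 CPM gives most cells no UMI, so single cells without a Hopx, Pdpn or Igfbp2 UMI are not shown to lack the transcript.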

Other observations

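Some gene groups outside the comparisons above were close to even between the chosen and the comparison AT2 cells, where 8.12% of all measured genes were 1.5-fold or more higher and 10.5% lower. Among genes with 50 CPM and 30 UMIs in the higher group, these shares were 0.905% and 0.317%. The 50 CPM were reached by 6 of the 7 MHC class II and 19 of the 22 surfactant lipid genes below. MHC class II genes, by which AT2 cells present antigen, held 0 of 7 genes beyond 1.5-fold, with the invariant chain Cd74 at 4668 against 4330 CPM (1.08, 1.04 to 1.11) and H2-Aa at 1036 against 992 CPM (1.04, 0.97 to 1.12). Surfactant lipid synthesis held 1 of 22 measured genes beyond 1.5-fold, Sqle, and the desaturase Scd1 stood at 4834 against 4760 CPM (1.02, 0.98 to 1.05). Genes of the primed AT2 state held 2 of 11 higher and 1 lower, Cxcl2, which had 0 UMIs in the chosen cells and was at least 1.56-fold lower against a floor of 3 counts over the group, with the iron-binding protein Lcn2 at 875 against 1012 CPM (1.16-fold lower, 1.07 to 1.25).

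Immediate early genes, which dissociation can induce, held 0 of 19 higher and 2 lower, Atf3 (8.78 against 14.8 CPM) and Klf4 (12.5 against 22.9 CPM), with intervals that include a ratio of 1. Fos stood at 214 against 261 CPM (1.22-fold lower, 1.04 to 1.43). Of 13 measured cell cycle genes 4 were higher and 0 lower, 10 lay above a ratio of 1, and the median log2 ratio was 0.37 against 0.02 over all measured genes. The 4 were Cenpf, Mcm4, Mcm6 and Tyms, each on 8 to 14 UMIs with an interval that includes a ratio of 1, and 8 of the 9 Cenpf UMIs came from 1 cell.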
